A study of Mus musculus with 8 samples.

Results

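Gene expression in 8 subcutaneous CT26 tumours is described here by setting the 4 tumours numbered 1 and 4 against the 4 tumours numbered 2 and 3. Each side held 2 control and 2 propranolol tumours, so treatment was balanced over the sides. The sides were chosen by measured values, the levels of T cell-linked genes such as Cd3e, Cd8a, H2-Ab1 and Gzmb, after those values had been seen. Every difference between the sides below is therefore a description, and no test is given for it.

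CT26 is a colon carcinoma cell line from mouse. The cells were injected under the skin of male mice, whose strain the labels write as BABL/C and whose genotype they give as WT. Control mice received PBS, and the other mice received propranolol, a blocker of beta-adrenergic receptors, once a day into the peritoneum after their tumours had reached a set volume. All 8 tumours thus come from 1 cell line in hosts with their own immune cells, and RNA was extracted from whole frozen tumours, so tumour cells and host cells were measured together. In such bulk samples fewer cells of a type and less RNA per cell cannot be told apart. The labels number the tumours 1 to 4 in each treatment without saying what a number marks or whether each tumour came from its own animal. The design text speaks of duplicates although the titles give 4 tumours per treatment, so SDs, SEs and p-values rest on taking the 4 as separate samples. Library totals lay between 15483409 and 17511937 counts. Levels are in CPM, read counts per library total scaled with TMM factors, and log2 differences between the sides are fitted with treatment as a covariate.

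Cytotoxic T cells recognise peptides on MHC class I through a T cell receptor that signals through the CD3 chains, with CD8 as co-receptor, and kill with granzymes and perforin. They and NK cells release interferon gamma, which acts on tumour and myeloid cells and raises MHC genes, guanylate-binding proteins and the chemokines Cxcl9 and Cxcl10. Type I interferons act through an overlapping pathway and raise antiviral genes such as Isg15 and the Ifit family. In tumours, T cells under lasting stimulation carry inhibitory receptors such as PD-1, encoded by Pdcd1, together with the nuclear factor Tox.

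The CD3 and CD8 chains were read in each tumour to check how far the sides hold more and less T cell RNA. Values for tumours 1 and 4 are given in the order control 1, control 4, propranolol 1 and propranolol 4, and those for tumours 2 and 3 in the order control 2, control 3, propranolol 2 and propranolol 3. Cd3e, a signalling chain of the T cell receptor complex, stood at 4.39, 3.85, 15 and 18 CPM in tumours 1 and 4 and at 3.07, 1.24, 4.91 and 0.493 CPM in tumours 2 and 3. Cd8a, the alpha chain of the CD8 co-receptor, stood at 12.3, 5.75, 42.6 and 57 CPM in tumours 1 and 4 and at 4.78, 2.59, 12.6 and 1.05 CPM in tumours 2 and 3. Propranolol 1 and propranolol 4 were far above all others in both genes, propranolol 3 was lowest, and propranolol 2 was above both control tumours of the other side. The log2 difference between the sides was 1.81 for Cd3e and 2.13 for Cd8a, and the SD of log2 CPM between tumours of the same side and treatment was 1.17 and 1.32.

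The remaining chains were read in the same way. Cd3d stood at 2.67, 1.09, 8.64 and 11.1 CPM in tumours 1 and 4 and at 1.25, 0.589, 2.6 and 0.616 CPM in tumours 2 and 3. Cd3g stood at 4.96, 3.97, 15 and 28.2 CPM in tumours 1 and 4 and at 2.56, 1.12, 4.2 and 0.862 CPM in tumours 2 and 3. Cd247, the zeta chain, stood at 1.27, 2.53, 5.59 and 6.99 CPM in tumours 1 and 4 and at 1.14, 0.354, 1.77 and 0.246 CPM in tumours 2 and 3. In these 3 genes, too, propranolol 2 exceeded at least 1 of the control tumours numbered 1 or 4. Cd8b1, the CD8 beta chain, stood at 2.74, 2.99, 11.7 and 20.1 CPM in tumours 1 and 4 and at 1.14, 1.36, 4.02 and 0.493 CPM in tumours 2 and 3. Raw counts behind the lowest values were small, with 8 reads of Cd3e and 4 reads of Cd247 in propranolol 3.

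Of these 6 chain genes, 0 separated the sides without overlap. Within the control tumours 5 of 6 were higher in tumours 1 and 4, where 24.4% of all genes were, and within the propranolol tumours 6 of 6 were, beside 20.9% of all genes. Propranolol 1 and propranolol 4 were the 2 highest tumours for 6 of 6 genes, and propranolol 2 lay above at least 1 tumour numbered 1 or 4 for 6 of 6. At the edge of the split, the highest Cd8a level in tumours 2 and 3 was 12.6 CPM and the lowest in tumours 1 and 4 was 5.75 CPM. Across all 8 tumours the chains thus did not follow the name T cell-rich, and the sides are called by their numbers here. Of the 4 genes given as markers of the split, 1 separated the sides, H2-Ab1, while Cd3e, Cd8a and Gzmb overlapped.

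**Figure D1:**
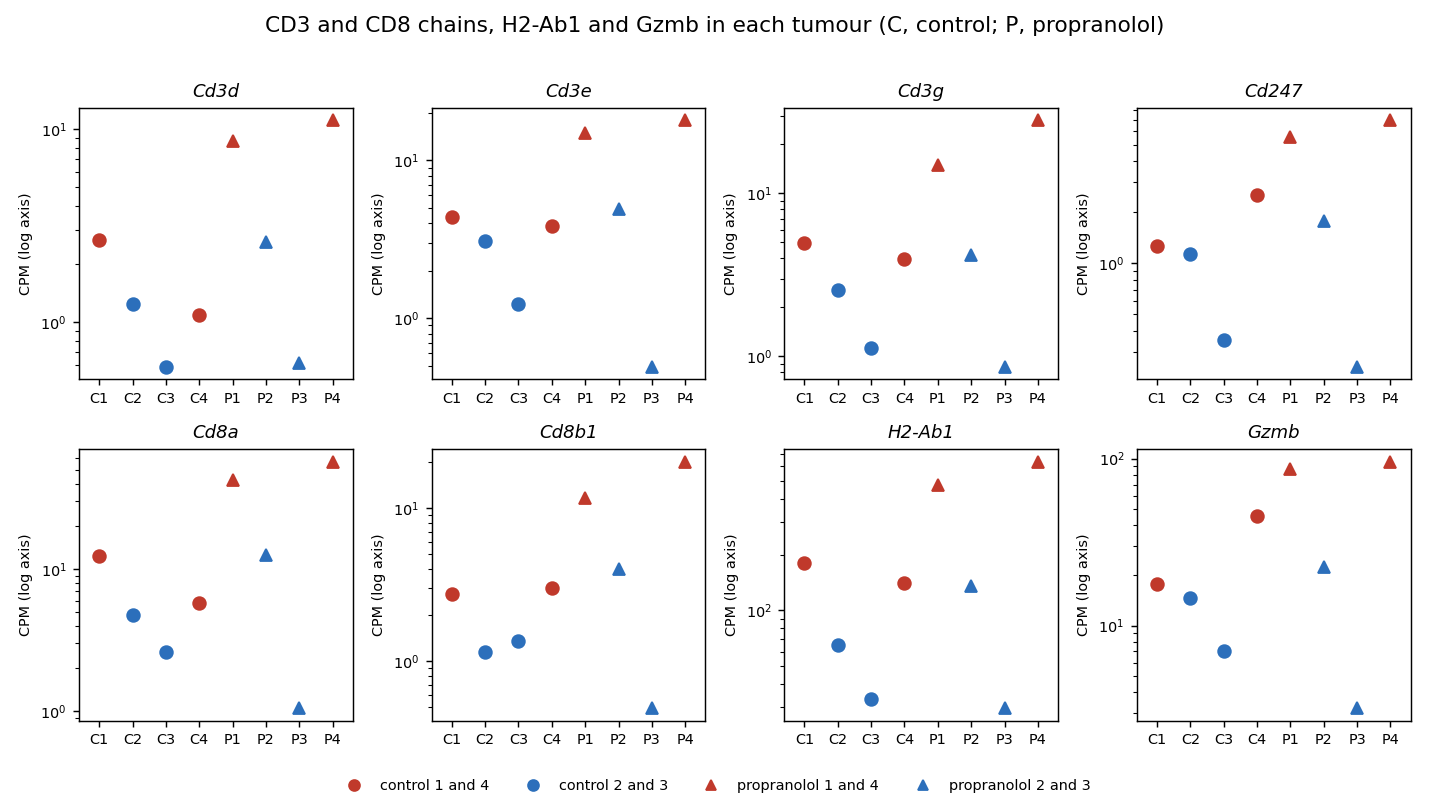
CPM on a log axis of 6 CD3 and CD8 chain genes, H2-Ab1 and Gzmb in each of the 8 tumours; 1 point is 1 tumour, circles are control and triangles propranolol tumours, and red marks tumours 1 and 4. Propranolol 1 and propranolol 4 are highest in each panel, and the control tumours 1 and 4 lie close to propranolol 2 for most chains.

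Over the whole table, 886 of 14006 genes (6.33%) were higher in all 4 tumours numbered 1 and 4 than in any tumour numbered 2 or 3, and 1057 genes (7.55%) were lower without overlap. The higher genes stood further apart, with a median log2 difference of 0.76 against -0.40 for the lower ones and -0.006 for all genes. At least 2-fold differences were found for 309 of the higher and 80 of the lower genes. Of the 466 list genes tested, 88 were higher and 10 lower without overlap. These shares describe sides picked on immune genes, so an excess of immune genes among them is part of the choice.

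Within treatments, 1424 genes were higher in both of tumours 1 and 4 than in both of tumours 2 and 3 in each treatment separately, and 1480 were lower. Opposite order in the treatments was seen for 270 genes that were higher in control and lower in propranolol tumours, and for 168 with the reverse. The difference had the same sign in both treatments for 67.7% of genes, and the differences correlated across genes with a Pearson r of 0.581. Genes are not independent replicates, so this r is a description of these 8 libraries. The first principal component of log2 CPM held 46.8% of the variance and ran from -49.4 in propranolol 3 over -3.09 in propranolol 2 and 5.95 in control 1 to 48.4 in propranolol 4. Propranolol 2 and control 1 were thus neighbours across the line between the sides.

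**Figure D2:**
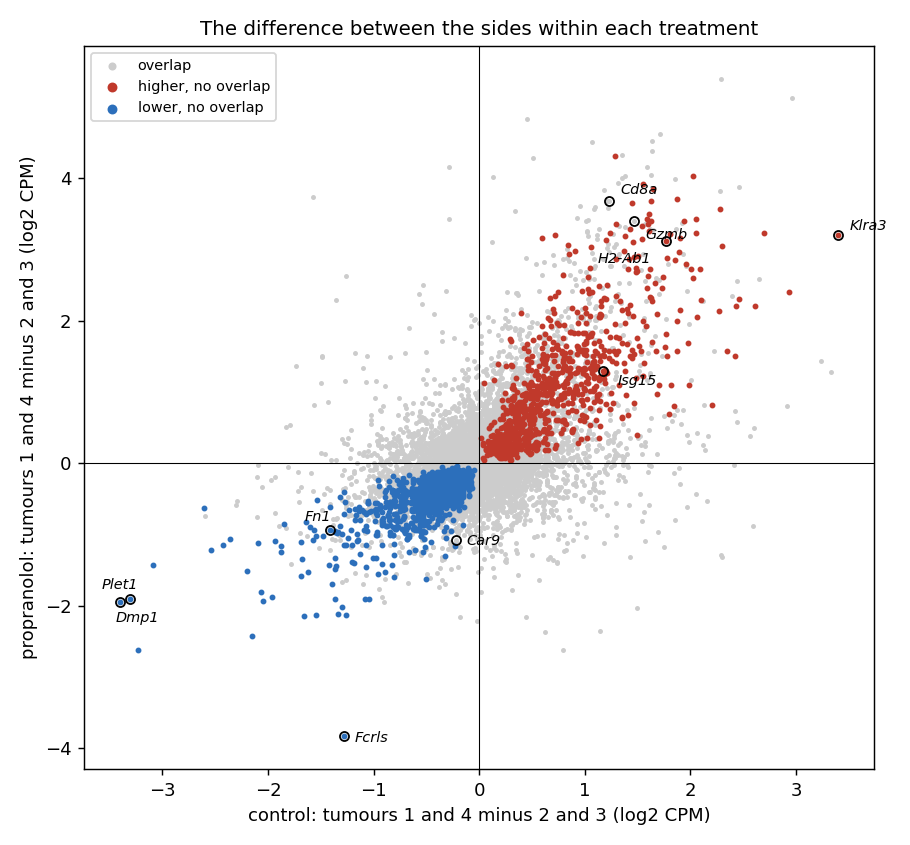
Each point is 1 of the tested genes, with the difference in mean log2 CPM between tumours 1 and 4 and tumours 2 and 3 among control tumours on the x axis and among propranolol tumours on the y axis. Red and blue genes do not overlap between the sides; Cd8a and Gzmb lie in the upper right with overlap, and Dmp1, Plet1 and Fcrls lie in the lower left without it.

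T cell receptor genes were higher on average in tumours 1 and 4. All 8 tested members of the T cell receptor and CD3 list had a log2 difference above 0, with a median of 2.02. Beside 6.33% of all genes, only 2 of these 8 were higher without overlap. These were Trbc1, a constant segment of the receptor beta chain, and Trdc, that of the delta chain of gamma-delta T cells. Trbc1 stood at 8.97, 7.93, 20.4 and 32.7 CPM in tumours 1 and 4 and at 4.44, 1.24, 5.32 and 2.16 CPM in tumours 2 and 3. Trdc stood at 1.84, 2.87, 4.52 and 3.52 CPM in tumours 1 and 4 and at 0.739, 0.118, 1.18 and 0.493 CPM in tumours 2 and 3. Control 1 and control 4 were above control 2 and control 3 in both genes, and the gap was wider in the propranolol tumours for Trbc1. The list median was 1.29 within control and 3.07 within propranolol tumours, a contrast that was not tested. Leaving out a tumour can free a gene of overlap, so such counts are given beside those of all genes. Propranolol 2, control 1 and control 4 were where the sides met for these immune genes. A rise without 1 of them thus follows from how they were picked and does not bear out the split. Without propranolol 2 the count was 7 of 8, beside 1502 of 14067 genes (10.7%) over the whole table. Without control 4 it was 5 of 8, beside 1355 of 14044 (9.65%). It was 3 of 8 without control 1, and 2 of 8 with any other single tumour left out.

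Among co-receptors and signalling proteins of T cells, 8 of 24 were higher and 0 lower without overlap, with a median log2 difference of 1.62. Over all genes the shares were 6.33% and 7.55%. Cd4, which binds MHC class II on behalf of helper cells, stood at 3.63, 2.18, 4.12 and 3.71 CPM in tumours 1 and 4 and at 1.31, 1.06, 2.07 and 0.801 CPM in tumours 2 and 3. The sides did not overlap for Cd4, although control 4 and propranolol 2 were close. Il2rb, a receptor chain for interleukin 2 and interleukin 15, stood at 33.5, 45.1, 139.9 and 91 CPM in tumours 1 and 4 and at 17.6, 5.72, 22 and 5.11 CPM in tumours 2 and 3. Lck, the kinase bound to CD4 and CD8, had a log2 difference of 1.78, and Icos, a costimulatory receptor, one of 1.97. Lef1, linked to resting T cells, had a difference of -0.24 with overlap. Without propranolol 2 the count in this list was 18 of 24, beside 10.7% of all genes, and without control 4 it was 12 of 24, beside 9.65%. It was 10 of 24 without control 1, and 8 of 24 with any other single tumour left out.

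Cytotoxic effectors had 7 of 19 tested members higher without overlap, beside 6.33% of all genes. The list median log2 difference was 2.20. Gzma, granzyme A, stood at 17, 33.1, 76.4 and 85 CPM in tumours 1 and 4 and at 11.1, 2.95, 11.9 and 1.91 CPM in tumours 2 and 3. Nkg7, a granule membrane protein of killer cells, stood at 10.9, 11.8, 30.3 and 44 CPM in tumours 1 and 4 and at 4.27, 1.65, 7.45 and 1.42 CPM in tumours 2 and 3. Propranolol 3 was lowest and control 3 next for both genes. Gzmb overlapped because propranolol 2 at 22.4 CPM exceeded control 1 at 17.8 CPM. Prf1, perforin, stood at 12.2, 32, 69.9 and 81.9 CPM in tumours 1 and 4 and at 9.27, 4.24, 12.6 and 0.924 CPM in tumours 2 and 3. Control 1 was just below propranolol 2 for Prf1, so its sides overlapped. Ifng itself was barely measured, with 3 to 23 reads in the control tumours, 0 in propranolol 3 and 176 in propranolol 4. The count was 13 of 19 without control 1, beside 1416 of 14068 genes (10.1%) over the whole table, and 13 of 19 without propranolol 2, beside 10.7%. It was 9 of 19 without control 4, and 7 of 19 with any other single tumour left out.

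NK cell receptors had 6 of 9 tested members higher without overlap, beside 6.33% of all genes. The list median log2 difference was 2.06. Klra3, a Ly49 receptor in no list, had a log2 difference of 3.23, the largest among the named genes outside the lists. It stood at 3.88, 2.7, 6.49 and 9.17 CPM in tumours 1 and 4 and at 0.739, 0, 1.06 and 0.493 CPM in tumours 2 and 3. Klrd1, the CD94 chain, stood at 10.4, 4.71, 16.1 and 30.9 CPM in tumours 1 and 4 and at 2.96, 1.06, 3.84 and 1.48 CPM in tumours 2 and 3. Ncr1, the activating receptor NKp46, stood at 6.17, 8.39, 19.4 and 14.1 CPM in tumours 1 and 4 and at 4.15, 1, 3.67 and 1.85 CPM in tumours 2 and 3. For these genes control 1, control 4, propranolol 1 and propranolol 4 were all above the highest tumour of the other side. Klrc2, Klre1 and Klri2, further lectin-like receptors, had log2 differences of 2.57, 2.59 and 2.69. Klrb1c, the NK1.1 antigen gene, overlapped, and Il18rap, a chain of the interleukin 18 receptor, went the other way at 144, 122, 160.3 and 186 CPM in tumours 1 and 4 and at 182, 234, 190.0 and 190.5 CPM in tumours 2 and 3. Il18rap made up most of the summed NK level, so that sum does not follow the other members. The Klra, Klrc and Klri genes include near copies within each family, and no source used here says how shared reads were assigned.

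Genes linked to T cell exhaustion had 7 of 16 tested members higher without overlap, beside 6.33% of all genes. The list median log2 difference was 1.49. Pdcd1, which encodes PD-1, stood at 3.37, 4.2, 22 and 15.6 CPM in tumours 1 and 4 and at 1.25, 1, 2.66 and 0.493 CPM in tumours 2 and 3. Tox, a nuclear factor that upholds the exhausted state, stood at 2.67, 1.49, 7.9 and 5.83 CPM in tumours 1 and 4 and at 0.569, 0.413, 1.01 and 0.369 CPM in tumours 2 and 3. Lag3, an inhibitory receptor that binds MHC class II, stood at 4.33, 4.02, 16.7 and 23.9 CPM in tumours 1 and 4 and at 2.28, 2.06, 3.78 and 1.54 CPM in tumours 2 and 3. Both propranolol tumours numbered 1 and 4 were the highest for these 3 genes, and control 1 and control 4 came next. Havcr2, which encodes TIM-3, and Entpd1, the ectonucleotidase CD39, had log2 differences of 1.40 and 0.81 without overlap. Tigit and Layn, listed with them, had differences of 0.14 and -0.42 with overlap, and Ctla4 was at 0 reads in propranolol 3. Of 6 tested genes of regulatory T cells, 2 were higher without overlap, beside 6.33% of all genes. These 2 were Il2ra and Tnfrsf4, with log2 differences of 1.08 and 0.70. Foxp3, the defining factor of regulatory T cells, overlapped at 3 to 46 reads per tumour.

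MHC class II genes, used by antigen-presenting cells to show peptides to CD4 T cells, were higher on average in tumours 1 and 4. H2-Ab1, a class II beta chain, stood at 179, 141, 474 and 633 CPM in tumours 1 and 4 and at 64.9, 33.5, 135 and 29.7 CPM in tumours 2 and 3. H2-DMa, a chaperone chain that loads peptide, stood at 54.4, 47.8, 104 and 134 CPM in tumours 1 and 4 and at 32, 22.3, 45.8 and 15.9 CPM in tumours 2 and 3. The 4 tumours numbered 1 and 4 were above the rest, with propranolol 2 and control 4 near each other. The log2 difference of H2-Ab1 was 2.23, with an SD of 0.86 between tumours of the same side and treatment. Ciita, the master activator of class II genes, and Cd74, the invariant chain, overlapped with log2 differences of 1.90 and 2.20. Cd74 stood at 807, 575, 1801 and 2953 CPM in tumours 1 and 4 and at 295, 160.1, 587 and 97.5 CPM in tumours 2 and 3. Of 9 tested class II genes 3 were higher without overlap, beside 6.33% of all genes, and the list median was 2.09. The count was 8 of 9 without control 4, beside 9.65% of all genes, and 8 of 9 without propranolol 2, beside 10.7%. With any other single tumour left out the count stayed at 3 of 9.

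MHC class I and peptide supply had 9 of 19 tested members higher without overlap, beside 6.33% of all genes. The list median log2 difference was smaller, at 1.11. B2m, the light chain of class I molecules, stood at 1958, 1728, 2209.7 and 3304 CPM in tumours 1 and 4 and at 1312, 1307, 1571 and 959 CPM in tumours 2 and 3. H2-T23, which encodes the Qa-1 molecule seen by NK receptors, stood at 156, 182, 316 and 367 CPM in tumours 1 and 4 and at 92.5, 71.5, 132 and 50.1 CPM in tumours 2 and 3. Psme2, a subunit of the proteasome activator, had a log2 difference of 1.05. Tap1, the peptide transporter, overlapped because propranolol 2 was above control 1, at 211, 333, 509.9 and 543 CPM in tumours 1 and 4 and at 143, 126, 251 and 66.8 CPM in tumours 2 and 3. The count was 18 of 19 without control 1, beside 10.1% of all genes, and 18 of 19 without propranolol 2, beside 10.7%. With any other single tumour left out the count stayed at 9 of 19.

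Genes induced by interferon gamma were higher within each treatment for 25 of 25 tested members. The share of all genes was 24.4% within control and 20.9% within propranolol tumours. Over all tumours 7 of 25 were higher without overlap, beside 6.33% of all genes. Irgm1, an immunity-related GTPase, stood at 154, 242, 406 and 468 CPM in tumours 1 and 4 and at 90.2, 86.2, 146 and 41.7 CPM in tumours 2 and 3. Gbp6, a guanylate-binding protein, stood at 10.4, 10.7, 28.8 and 38.6 CPM in tumours 1 and 4 and at 3.87, 3.71, 6.68 and 0.924 CPM in tumours 2 and 3. Propranolol 3 was lowest in both genes, below control 3, and propranolol 1 and propranolol 4 were highest. Cxcl9, a chemokine that draws T cells, overlapped at 103, 103, 363 and 347 CPM in tumours 1 and 4 and at 55.5, 43.3, 111 and 2.09 CPM in tumours 2 and 3. The low value of Cxcl9 in propranolol 3 rests on 34 reads. Cxcl10, its relative, separated the sides at 40.1, 72.2, 110.0 and 92.9 CPM in tumours 1 and 4 and at 26.7, 25.7, 34.1 and 10.1 CPM in tumours 2 and 3. Ido1, an enzyme that breaks down tryptophan, and Cd274, which encodes PD-L1, overlapped with log2 differences of 2.31 and 1.43. The list median was 1.82, and the count was 25 of 25 without propranolol 2, beside 10.7% of all genes, and 24 of 25 without control 1, beside 10.1%. With any other single tumour left out the count stayed at 7 of 25.

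The type I interferon list had 15 of 18 tested members higher without overlap, beside 6.33% of all genes. The list median log2 difference was 1.26. Isg15, a ubiquitin-like modifier, stood at 36.3, 78.1, 53.6 and 86.7 CPM in tumours 1 and 4 and at 24.6, 22.8, 28.3 and 27 CPM in tumours 2 and 3. Ifit3, an antiviral protein of the Ifit family, stood at 27.9, 49.6, 47.2 and 75 CPM in tumours 1 and 4 and at 19.3, 17, 15.8 and 19.1 CPM in tumours 2 and 3. Zbp1, a sensor of nucleic acids, stood at 99.1, 186, 272 and 417 CPM in tumours 1 and 4 and at 55.1, 47.2, 94 and 27.5 CPM in tumours 2 and 3. The log2 difference of Isg15 was 1.31 (SD 0.46 within side and treatment). For Isg15 and Ifit3, control 4 was level with or above propranolol 1, unlike the T cell receptor genes. Summed over the type I list, control 4 reached 2391 CPM and propranolol 1 reached 2354 CPM, whereas their sums over the T cell receptor and CD3 list were 30.4 and 104 CPM. Irf7, the factor that drives type I interferon genes, stood at 141, 295, 239 and 274 CPM in tumours 1 and 4 and at 98.3, 78.6, 103 and 109 CPM in tumours 2 and 3. Rsad2, viperin, was 1 of the 3 members that overlapped, at 22.8, 61.6, 28.4 and 42.9 CPM in tumours 1 and 4 and at 19.9, 20.3, 15.3 and 26.2 CPM in tumours 2 and 3.

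**Figure D3:**
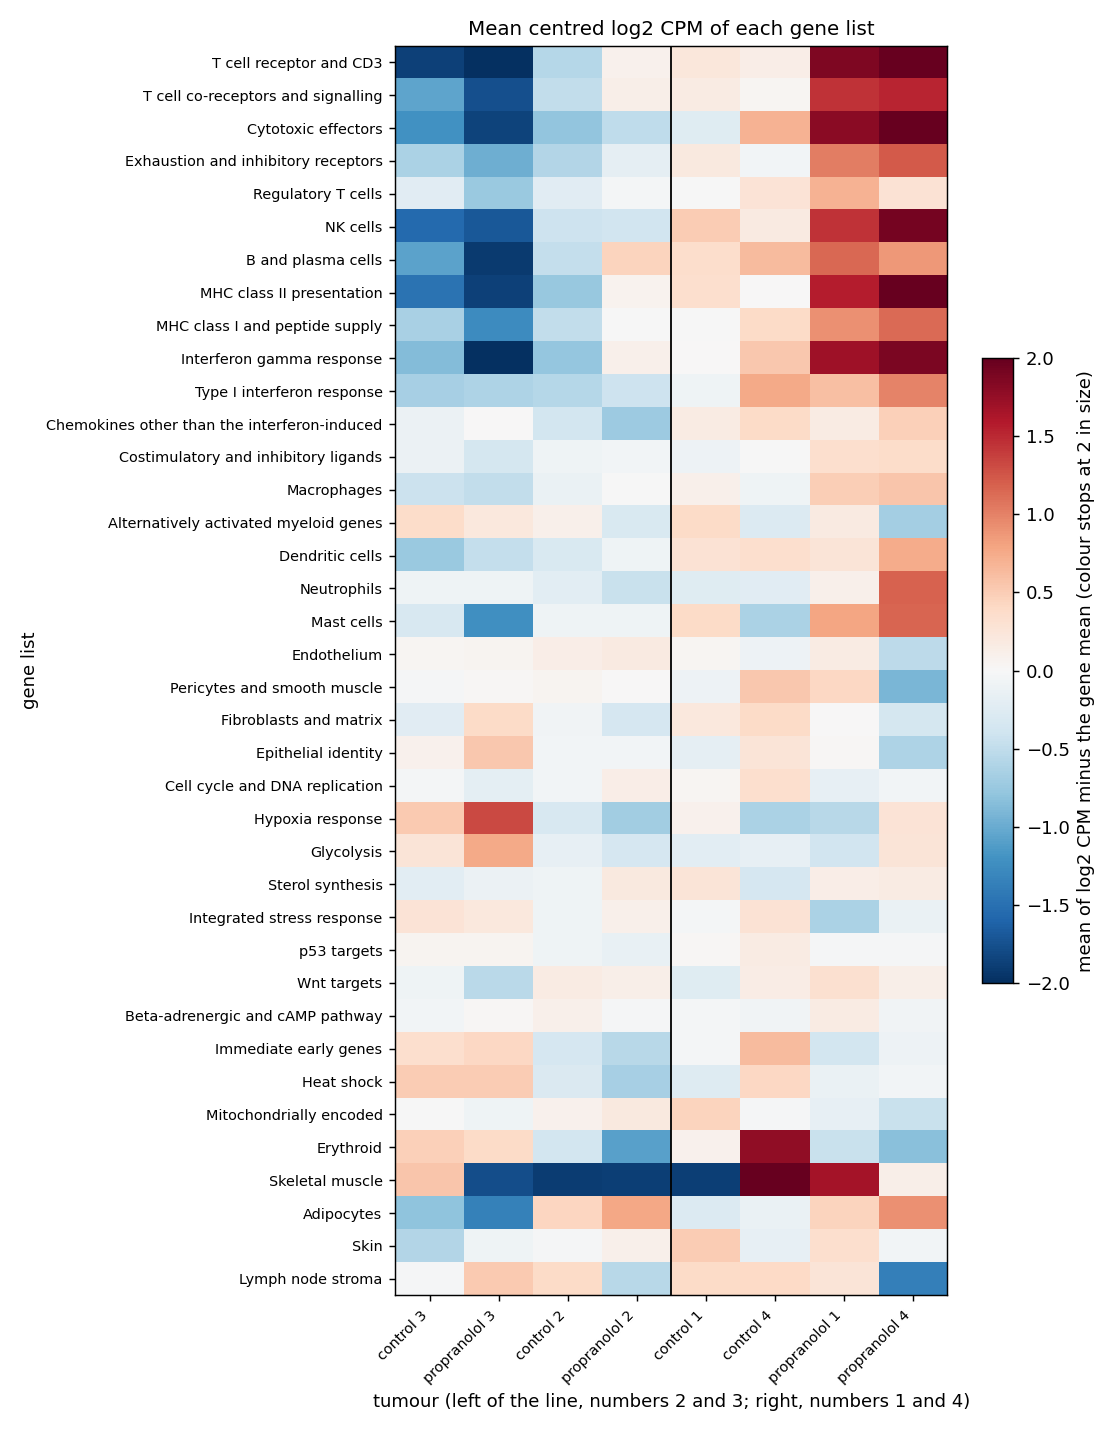
Colour shows the mean over tested members of log2 CPM minus each gene's mean over the 8 tumours, with gene lists as rows and tumours as columns; the line divides tumours 2 and 3 (left) from tumours 1 and 4 (right). Immune lists at the top run from blue in control 3 and propranolol 3 to red in propranolol 1 and propranolol 4, with propranolol 2 and control 1 near the middle, and skeletal muscle is reddest in control 4.

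Promoter sequences were examined because the interferon lists differed between the sides. The 250 bases before the start of each gene were searched on both strands for GAAA, any 2 bases and again GAAA, the core of the interferon-stimulated response element (ISRE), for TTCNNNGAA, the gamma-activated site (GAS), and for TGACGTCA, the cyclic AMP response element. Promoters from RefSeq (build GRCm38.p6) were matched to 10567 tested genes, and 304 of them (2.88%) held the ISRE core, against 2.98% of all promoters in the table. Among genes higher without overlap 56 of 675 (8.3%) held it, and among genes lower without overlap 10 of 797 (1.25%). The higher genes come from sides picked on immune genes and include members of the interferon lists, so an excess among them is part of the choice. It was found in 11 of 17 promoters of the interferon gamma list and in 6 of 14 of the type I list. The GAS letters were found in 6.05% of tested genes, 5.78% of the higher and 5.14% of the lower genes, and in 9 of 17 promoters of the interferon gamma list and 2 of 14 of the type I list. Corresponding shares for the cyclic AMP element were 2.71%, 2.07% and 3.01%. Of the genes considered for showing a promoter, H2-DMa, H2-DMb1 and Ifi44 had an entry but held neither the ISRE core nor the GAS letters. Successive ISRE cores can overlap each other, and a match of letters is not evidence of binding.

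The promoters of Irgm1, for the interferon gamma list, and Ifit3, for the type I list, are given from 250 bases before to the base before the start, with every base of an ISRE core in capitals. Irgm1 lies on the minus strand at chr11:48871421-48871670, and its cores begin 30 and 24 bases before the start and overlap. Ifit3 lies on the plus strand at chr19:34583279-34583528, where the cores read on the opposite strand and begin 156 and 122 bases before the start.
Irgm1: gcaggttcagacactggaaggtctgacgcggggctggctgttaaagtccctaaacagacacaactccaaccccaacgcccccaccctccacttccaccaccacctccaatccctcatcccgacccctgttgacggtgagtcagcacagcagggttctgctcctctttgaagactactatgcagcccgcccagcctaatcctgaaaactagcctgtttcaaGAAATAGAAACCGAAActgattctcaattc
Ifit3: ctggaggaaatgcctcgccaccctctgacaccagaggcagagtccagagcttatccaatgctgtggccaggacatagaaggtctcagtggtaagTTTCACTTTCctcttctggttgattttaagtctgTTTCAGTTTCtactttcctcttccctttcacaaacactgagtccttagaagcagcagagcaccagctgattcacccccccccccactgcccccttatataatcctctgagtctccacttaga

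Leukocyte genes beyond T and NK cells were read in the same way. Ptprc, the pan-leukocyte gene for CD45, stood at 128, 123, 213 and 260.4 CPM in tumours 1 and 4 and at 85.7, 61.4, 103 and 47.9 CPM in tumours 2 and 3. In macrophages 5 of 15 tested genes were higher without overlap, beside 6.33% of all genes. The list median log2 difference was 0.51. Fcgr4, an activating Fc receptor, stood at 43, 53.5, 96.3 and 177 CPM in tumours 1 and 4 and at 21, 16.1, 38.6 and 6.96 CPM in tumours 2 and 3. Adgre1, which encodes F4/80, stood at 85.1, 78.8, 109 and 105 CPM in tumours 1 and 4 and at 61.7, 50.3, 66.1 and 60.3 CPM in tumours 2 and 3. Adgre1 thus differed less between the sides than Fcgr4. Csf1r, the receptor for macrophage growth factor, and C1qa, a complement chain, overlapped with differences of 0.25 and 0.59. Of 8 alternatively activated myeloid genes 0 were higher and 1, Spp1, was lower without overlap, beside 7.55% of all genes lower. A difference above 0 was found for 4 of the 8 and below 0 for 4. The list median was -0.16, and 0.07 without propranolol 4. Mrc1, the mannose receptor, had a difference of -0.38 and Folr2 one of 0.09, both with overlap.

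Dendritic cell genes were higher without overlap for 3 of 13 tested members, beside 6.33% of all genes. Clec9a, a receptor for dead cells on cross-presenting dendritic cells, stood at 3.24, 3.68, 5.93 and 13.2 CPM in tumours 1 and 4 and at 1.76, 0.589, 2.96 and 0.924 CPM in tumours 2 and 3. Batf3, their transcription factor, stood at 2.54, 3.22, 3.78 and 5.65 CPM in tumours 1 and 4 and at 0.796, 1.12, 1.42 and 1.17 CPM in tumours 2 and 3. Irf4 was the third, with a log2 difference of 1.31, while Xcr1 and Flt3 overlapped at 2.29 and 0.68. B and plasma cell genes were 0 of 7 without overlap. Ighm, an immunoglobulin heavy chain, stood at 37.7, 27, 44.6 and 61.1 CPM in tumours 1 and 4 and at 12.5, 5.13, 43.3 and 2.09 CPM in tumours 2 and 3, with propranolol 2 above control 1 and control 4. Neutrophil genes were 1 of 7, beside 6.33% of all genes, and this was the histamine enzyme Hdc, with a difference of 1.22. In a list this short 1 gene moves the share far. S100a8, S100a9, Cxcr2, Retnlg and Ly6g were listed but not tested. Mast cell genes were 0 of 9, and stayed at 0 of 9 with any single tumour other than control 4 left out. Without control 4 they were 7 of 9, beside 9.65% of all genes, and control 4 had the lowest Tpsab1 (tryptase) level of its side at 11.7 CPM.

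Chemokines outside the interferon group had 3 of 16 tested members higher without overlap, beside 6.33% of all genes. Ccl8, made by macrophages, stood at 172, 65.1, 180.3 and 284 CPM in tumours 1 and 4 and at 49.9, 28.6, 59.6 and 20.9 CPM in tumours 2 and 3. Cxcl12, a stromal chemokine, stood at 16.1, 23.1, 18.3 and 17.5 CPM in tumours 1 and 4 and at 6.94, 10.8, 8.1 and 11.8 CPM in tumours 2 and 3. Ccl11, which draws eosinophils, had a log2 difference of 1.51. Ccl5 overlapped at 1.79. Costimulatory and inhibitory ligands were split, with Cd48 higher at 1.24 and Pvr, the poliovirus receptor that binds TIGIT and CD226, lower without overlap at 91.4, 72.9, 67.9 and 97.1 CPM in tumours 1 and 4 and at 133, 179, 114 and 179.9 CPM in tumours 2 and 3.

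**Figure D4:**
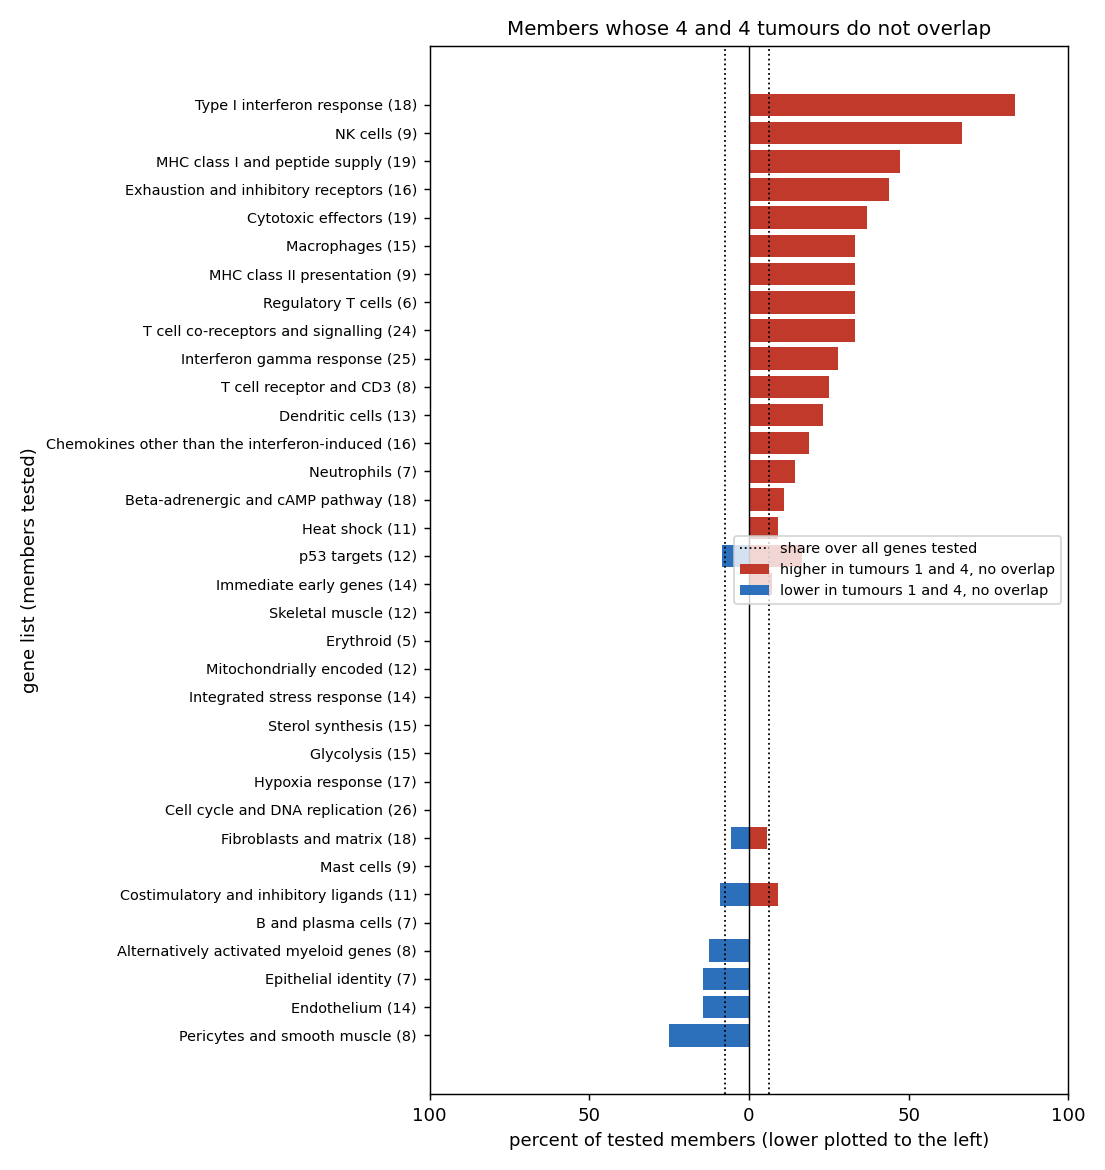
Percent of tested members of each list of at least 5 that were higher (red, to the right) or lower (blue, to the left) in tumours 1 and 4 with no overlap; dotted lines mark 6.33% and 7.55%, the shares over all genes tested. The type I interferon list stands highest, with 15 of 18 members, and cell cycle, hypoxia and glycolysis lists have none in either direction.

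Genes lower in tumours 1 and 4 were mostly of higher mean level and smaller difference than the higher ones, with a median mean log2 CPM of 5.97 against 4.31. Dmp1, a matrix protein of bone and dentine, stood at 13.4, 4.71, 15.9 and 19.8 CPM in tumours 1 and 4 and at 74.1, 86.4, 93.6 and 47.3 CPM in tumours 2 and 3. Plet1, a surface protein of placental and epithelial progenitors, stood at 9.03, 1.61, 4.23 and 7.47 CPM in tumours 1 and 4 and at 36.4, 48.4, 18.1 and 26.5 CPM in tumours 2 and 3. Control 4 had the lowest level of both, and the log2 difference was -2.55 for Dmp1 (SD 0.64 within side and treatment) and -2.47 for Plet1 (SD 0.93). Lgr6, a receptor for R-spondins, stood at 3.94, 2.13, 1.86 and 2.55 CPM in tumours 1 and 4 and at 9.33, 19, 8.87 and 16.6 CPM in tumours 2 and 3. Fcrls, an Fc receptor-like gene of myeloid cells, stood at 36.1, 17.2, 7.4 and 2.19 CPM in tumours 1 and 4 and at 65, 56.5, 49.1 and 71.1 CPM in tumours 2 and 3. Propranolol 4 and propranolol 1 were lowest for Fcrls, and the sides stayed apart in both treatments.

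Secreted signals were also among the lower genes. Il11, a cytokine of the interleukin 6 family, stood at 8.78, 4.37, 4.97 and 9.96 CPM in tumours 1 and 4 and at 20.2, 41.4, 13.1 and 31.5 CPM in tumours 2 and 3. Btc, betacellulin, a ligand of the epidermal growth factor receptor, stood at 29.4, 8.05, 21.4 and 36.8 CPM in tumours 1 and 4 and at 72.1, 113, 53.3 and 80.7 CPM in tumours 2 and 3. Control 3 and propranolol 3 were the highest of all 8 tumours for both. Among matrix genes Fn1, fibronectin, stood at 1729, 1399, 2374 and 1320.1 CPM in tumours 1 and 4 and at 3523, 4877, 2709 and 4255 CPM in tumours 2 and 3. Spp1, osteopontin, stood at 3566, 1730.5, 2513 and 2951 CPM in tumours 1 and 4 and at 4136, 6405, 3616 and 4454 CPM in tumours 2 and 3. Spp1 separated the sides narrowly, by control 1 and propranolol 2. Fer1l6, a ferlin, had a log2 difference of -1.43, within control -1.42 and within propranolol -1.43, so that it was of like size in both treatments. Car6, Fat2, Prss12 and Sh2d6 were lower without overlap at -1.65, -1.67, -2.08 and -2.10.

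**Figure D5:**
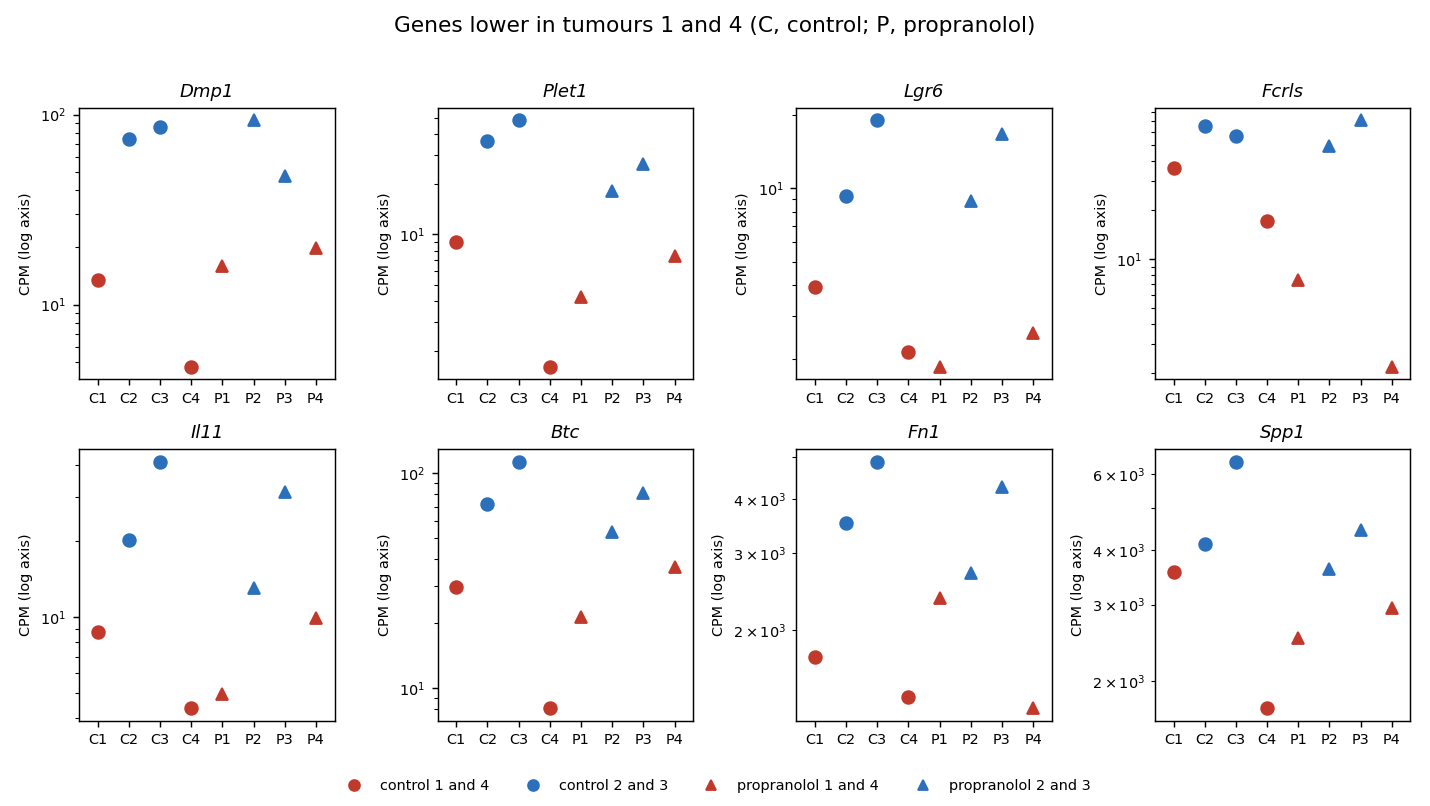
CPM on a log axis of 8 genes that were lower in tumours 1 and 4 without overlap; 1 point is 1 tumour, circles are control and triangles propranolol tumours. For Dmp1 the red tumours lie between 4.71 and 19.8 CPM and the blue ones between 47.3 and 93.6 CPM.

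Counts of stromal genes lower in tumours 1 and 4 are read against 7.55% of all genes lower without overlap. Endothelial genes had 2 of 14 lower without overlap, Flt1 and Cdh5, a receptor for vascular growth factor and a junction cadherin, with log2 differences of -0.59 and -0.73. Pecam1, their common marker, had a difference of -0.16 with overlap. Pericyte genes had 2 of 8 lower, Mcam and Notch3, while 3 of 8 had a difference above 0. The list did not fall across the side. Its mean centred log2 CPM was 0.54 in control 4, 0.41 in propranolol 1, -0.10 in control 1 and -0.91 in propranolol 4. In tumours 2 and 3 it was -0.02 to 0.05. The potassium channel pair Kcnj8 and Abcc9, also known from pericytes, was lower without overlap at -1.46 and -1.31. This pair is outside the list and was chosen after its values were seen. Propranolol 4 was the lowest tumour for Cdh5, Mcam, Notch3 and Kcnj8. Of 18 fibroblast and matrix genes 1 was higher (Thy1, 0.64 within control and 1.33 within propranolol tumours) and 1 lower (Fn1), and Col1a1 had a difference of 0.18. Thy1 was highest in propranolol 1 and propranolol 4, at 69 and 54.2 CPM, the tumours also highest for the CD3 and CD8 chains. Which cells its RNA came from was not tested. A run of small matrix proteoglycans stood apart from the listed matrix genes. Ogn, osteoglycin, stood at 394, 247, 349.7 and 333 CPM in tumours 1 and 4 and at 195, 106, 178 and 192 CPM in tumours 2 and 3. Aspn and Omd had differences of 0.96 and 1.16 without overlap.

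Of 14 epithelial identity genes 7 were tested, and the others, Epcam among them, were not analysed here. Krt20, a colon keratin, was lower without overlap at 81.3, 44, 86.1 and 76.2 CPM in tumours 1 and 4 and at 101, 145, 106 and 157 CPM in tumours 2 and 3. It was the 1 of 7 lower without overlap, beside 7.55% of all genes. Krt18 had a log2 difference of -0.98 and Krt8 one of 0.25, both with overlap. A difference above 0 was found for 3 of the 7 and below 0 for 4. The list median was 0.17 within control and -0.73 within propranolol tumours, so the list did not fall in both treatments. Cdh1, E-cadherin, lay between 0.569 and 3.33 CPM.

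Lists of tumour cell programmes were counted in the same way, beside 6.33% of all genes higher and 7.55% lower without overlap. In lists this short such shares amount to few genes. Of 26 cell cycle genes, 17 hypoxia genes, 15 glycolysis genes, 15 sterol synthesis genes, 14 genes of the integrated stress response and 12 mitochondrially encoded genes, 0 were without overlap in either direction. Mki67, a proliferation marker, stood at 442, 522, 479 and 449.6 CPM in tumours 1 and 4 and at 491, 523, 617 and 491 CPM in tumours 2 and 3. Hypoxia genes varied by tumour instead of by side, with summed levels from 797 CPM in control 4 to 4038 CPM in propranolol 3, and their median log2 difference of -0.74 was -0.01 without propranolol 3. Car9, carbonic anhydrase of hypoxic cells, stood at 36.1, 6.15, 9.48 and 25 CPM in tumours 1 and 4 and at 11.3, 26.8, 7.69 and 136 CPM in tumours 2 and 3. Propranolol 3, which was lowest for 5 of 6 CD3 and CD8 chains, had the highest hypoxia sum, and the part of hypoxia in the side difference was not tested. Of 18 genes of the beta-adrenergic and cyclic AMP pathway 2 were higher without overlap, beside 6.33% of all genes. These were Arrb2 and Grk2, which switch off receptors, at 0.48 and 0.34. The list median was -0.06, and 11 of the 18 had a difference below 0, so the list as a whole was not higher.

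Single members of other lists also separated the sides. Among 12 p53 targets Pmaip1 and Trp53inp1 were higher and Bbc3 lower, and among 4 tested Wnt targets Tcf7l2 was higher and Znrf3 lower. In the immediate early list Zfp36, an RNA-decay protein, was 1 of 14, and in the heat shock list Hspa8, a constitutive chaperone, was 1 of 11. Lpl, lipoprotein lipase, was 1 of 3 adipocyte genes. With lists this short, 1 gene moves the share far from or past the 6.33% and 7.55% of all genes.

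RNA of neighbouring tissue varied between tumours. Skeletal muscle genes summed to 1012 CPM in control 4, 102 CPM in propranolol 1 and 9.98 to 35.9 CPM in the other 6 tumours, so both high tumours were numbered 1 or 4. Their median log2 difference of 3.93 was 1.59 without control 4, and 0 of 12 were without overlap. Erythroid genes summed to 194 CPM in control 4 and 25.4 to 87.6 CPM elsewhere. The 3 skin and 3 lymph node stroma genes tested had 0 without overlap. The part of adjoining tissue in the immune differences was not tested. Without control 4 the median log2 difference was 1.05 for the type I list, against 1.26 with it, and 2.20 for the T cell receptor and CD3 list, against 2.02.

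Genes that separated the sides also lay next to each other (coordinates in GRCm39). On chromosome 6 a run of 8 consecutive tested genes from 129673081 to 131330560 was higher, among them Klri1, Klri2, Klra7 and Klra3, and a run of 4 genes from 129554868 to 129637652 held Klre1, Klrd1, Klrk1 and Klrc2. On chromosome 1 the run from 171386761 to 171718285 held the SLAM family genes Cd244a, Ly9, Slamf7, Cd48 and Cd84, receptors of lymphocytes. A further run on chromosome 1, from 173296051 to 173594509, held 6 interferon-inducible genes of the Ifi family. On chromosome 13, from 49658286 to 49777977, Ecm2, Aspn, Omd and Ogn lay together, a cluster of matrix genes and not of immune genes. Among lower genes, Kcnh2, Nos3, Atg9b and Abcb8 lay together on chromosome 5 from 24524587 to 24615052. Nos3 and Atg9b overlap on opposite strands, and no source used here says whether counting used strand, so reads in their overlap cannot be told apart. Their log2 differences were -1.33 and -1.58. Read sharing between near copies was not tested.

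Treatment was compared across all 8 tumours as the labels give it, since the sides hold 2 tumours of each treatment. With edgeR's quasi-likelihood test 0 of 14006 genes (0%) passed an adjusted p of 0.05, and 273 had an unadjusted p under 0.05. With the side added as a covariate 0 genes passed, and 592 had an unadjusted p under 0.05, of which 407 were higher and 185 lower in propranolol tumours. The sides were picked on these same values, so the side covariate takes out spread by construction, and the larger unadjusted count is no sign of treatment. DESeq2 also called 0 genes, with 337 at an unadjusted p under 0.05. These 3 unadjusted counts lay below a share of 0.05 of the genes, the share to be met if no gene differed. Other fits lay above that share. The count was 717 with the replicate number as a block and 1017 without propranolol 3. It was 1286 without control 4 and propranolol 3, a setting chosen after seeing the data. Without any other single tumour it was 134 to 459. In each of these fits 0 genes passed an adjusted p of 0.05. For Cd8a the log2 difference between propranolol and control tumours was 2.16 (SE 1.01), and for Pdcd1 it was 2.05 (SE 1.04), edgeR adjusted p 0.999 for both. Propranolol tumours held both the highest and the lowest levels of the T cell chains, with propranolol 4 highest for 6 of 6 and propranolol 3 lowest for 5 of 6.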

How the data were processed

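RNA sequencing of 8 CT26 tumours, 4 control and 4 propranolol, was deposited as 1 table of 14133 genes with a raw read count and an FPKM value for every tumour, per the file headers. Tools listed in the submitters' processing notes, with no role for each, are HISAT2 2.1.0, featureCounts 1.6.2, StringTie 1.3.4d, fastp 0.19.3, edgeR 3.24.3 and DESeq2 1.22.1, beside the build GRCm39. No source used here says how shared or antisense reads were treated. The deposited FPKM values served only as an alternative scale. The authors' own fold changes and p-values were not used here.

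Counts were analysed with edgeR 4.0.16 in R 4.3.3, using TMM factors, filterByExpr (14006 genes left, 127 removed), robust dispersions and two-sided tests adjusted by Benjamini-Hochberg (threshold 0.05). A gene was without overlap when the lowest of 4 tumours on one side exceeded the highest of 4 on the other, on TMM-scaled CPM. Log2 differences between the sides came from a fit with treatment as covariate, with differences of mean log2 CPM (prior count 2) within each treatment. The treatment and side fits and the count of genes higher without overlap were run on simulated counts with known fold changes. The other steps were not. DESeq2 1.42.0 was an alternative. No 2 libraries of a group were copies, as the smallest chi-square per degree of freedom was 12.7.

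The members and lists were chosen with earlier results of these data known. There were 38 lists of 552 genes, of which 474 were in the table. Named genes were the CD3, CD8, Cd4, H2-Ab1 and Gzmb genes, up to 4 members per list with the largest difference without overlap (the 2 most abundant where none), and the 10 highest and 10 lowest genes outside the lists whose mean log2 CPM was 1 or more. Further genes, such as Prf1, Cxcl9, Isg15 and Car9, were chosen after their values were seen. Promoters came from RefSeq, and the rule for showing them was extended to the type I list afterwards, which added Ifit3. Genes with no entry included H2-Ab1, Gbp6, Gbp8, Zbp1 and Rtp4.

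Control and propranolol tumours share the numbers 1 to 4. Deviations of same-numbered tumours from their group means correlated at 0.19, 0.31, 0.51 and 0.28, all over 0.1. Pairs of the same side with other numbers reached 0.14 to 0.38, also over 0.1, so number and side cannot be told apart. This check therefore cannot show whether the numbers pair the samples. The main treatment fit was unpaired, and the number entered as a block only in an alternative fit. The p-values reflect only the spread among these samples, which may be technical. Some results are not reported here.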

Additional observations from a re-analysis of the deposited data

Results flagged for a closer look

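Within each treatment, single tumours that stood far from the other 3 were looked for among the reported genes and list sums with Dixon's test, which flags about 1 in 20 groups by chance; 12 of 338 groups of 4 were flagged. Control 4 was far above the other control tumours in Rsad2 at 61.6 CPM, Ido1 at 3.85 CPM, Foxp3 at 1.67 CPM and the summed skeletal muscle list at 1012 CPM, and far below them in Mrc1 at 341 CPM. Control 3 was far from the other control tumours in the glycolysis sum at 10926 CPM, in the adipocyte sum at 34.9 CPM and in Flt3 at 0.825 CPM. Propranolol 3 was far above the other propranolol tumours in Car9 at 136 CPM, in Col1a1 at 728 CPM and in the summed immediate early list at 1381 CPM. Propranolol 1 was far below them in Il18rap at 160.3 CPM.

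The summed level of the NK list had the opposite order in the treatments, higher in tumours 1 and 4 among propranolol tumours and lower among control tumours, with a difference of 0.78 between the log2 differences. This contrast was not tested, and Il18rap makes up most of the sum.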

How the results depend on the processing

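Under DESeq2 size factors, library totals, no filter and deposited FPKM, the genes higher without overlap numbered 923, 1029, 899 and 1026 and the lower ones 976, 835, 1066 and 837, against 886 and 1057. Leaving out 1 tumour at a time makes overlap rarer by construction, and gave 1019 to 1502 higher and 1118 to 1619 lower genes. The higher count moved by over 1.5 times without control 1 (1416), control 4 (1355), propranolol 1 (1472) and propranolol 2 (1502), and the lower count without propranolol 1 (1615) and propranolol 2 (1619). Leaving out control 4 and propranolol 3 together, an alternative chosen after seeing the data, gave 1631 and 1911. Of the 38 list medians 26 were above 0, and 24 to 29 under the alternatives, and of 118 named genes 86 were above 0, and 82 to 88 under the alternatives. Neither a list median nor a named gene moved by more than its spread under another scaling, filter, covariate or prior count. With tumours left out, 0 to 4 list medians and 0 to 2 named genes did per setting, among them the epithelial median (-0.55, 0.10 without propranolol 3), the ligand median (0.43, 0.08 without propranolol 3) and, without control 4 and propranolol 3, the hypoxia median (-0.74, 0.23) and the muscle median (3.93, 0.76). Propranolol against control gave 0 genes at an adjusted p of 0.05 under each alternative run, including the fit with the replicate number as a block (replicate block, 0 genes, 717 at an unadjusted p under 0.05). No such block could be fitted for the sides, because each number lies on 1 side. Low counts limit Ifng, Foxp3, Ctla4 and the CD3 chains in propranolol 3.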

Other observations

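Genes outside every list were among the largest differences between the sides. Chga, chromogranin A of neuroendocrine granules, stood at 3.94, 5.86, 26.3 and 19.4 CPM in tumours 1 and 4 and at 2.45, 0.589, 2.6 and 0.985 CPM in tumours 2 and 3. Acod1, the enzyme that makes itaconate in activated macrophages, stood at 6.11, 13.5, 26.9 and 61.4 CPM in tumours 1 and 4 and at 3.13, 4.24, 5.2 and 0.677 CPM in tumours 2 and 3. The 4 tumours numbered 1 and 4 were above the others for both, with propranolol 1 and propranolol 4 highest. Ly6i, Ms4a4d, Klrg1, Sytl2, AW112010 and Sh2d2a were also higher without overlap, with log2 differences of 3.07, 2.64, 2.61, 2.58, 2.40 and 2.39. Klrg1, a receptor of differentiated killer cells, stood at 0.954, 2.3, 5.76 and 4.98 CPM in tumours 1 and 4 and at 0.626, 0.295, 0.769 and 0.308 CPM in tumours 2 and 3.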
